A study of Mus musculus with 12 samples.

Results

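The 9 genes described here handle zinc inside the cell. Slc30a1, Slc30a5, Slc30a6, Slc30a7, Slc30a9 and Slc30a10 belong to the SLC30 (ZnT) family of metal transporters, most of which move zinc out of the cytosol. Mt1 and Mt2 encode metallothioneins, small cysteine-rich proteins that bind zinc, and Mtf1 encodes the transcription factor that senses it. They were taken by name from the 55487 genes listed per library. The list was drawn up with earlier results of these data known and leaves out family members near 0, so that all 9 passed the minimum mean of 1 TPM (transcripts of a gene among 1e+06) that left 11379 genes to test is no finding. RNA sequencing was done on the mouse erythroid line G1E-ER4, in which the missing transcription factor GATA1 is replaced by a form that estradiol switches on, so all groups share that background and describe 1 line. Every culture was nucleofected with siRNA on 2 occasions 24 h apart and was switched to differentiation with 100 nM β-estradiol at the second of them. The groups were siControl (control siRNA, n = 3), siControl plus DTPA (control siRNA with 25 µM DTPA, a metal chelator that takes up zinc and does not readily enter cells, n = 2 used of 3), siZIP10 (siRNA against the zinc importer ZIP10, gene Slc39a10, n = 3) and siZIP10 plus DTPA (n = 3). DTPA was added together with the estradiol and cultures were taken 24 h later, at 1 dose and 1 time. The design asks what a shortage of zinc, of ZIP10 or of both does to transcript levels.

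The third siControl plus DTPA library repeated the values of siZIP10 replicate 1 for every gene and was left out. Each of the 11 libraries used held 19.6 to 24.7 M reads (1 M is 1e+06), recovered from the deposited TPM. The 8 erythroid markers were all expressed. They summed to 36593 to 41557 TPM in siControl and 45304 to 48295 in siControl plus DTPA. The sums were 41921 to 43843 in siZIP10 and 34270 to 36636 in siZIP10 plus DTPA. The globin genes Hbb-bs (20180 to 30822 TPM) and Hba-a1 (4043 to 12471 TPM) made up most of each sum. Slc4a1, the band 3 gene, ranged from 21.7 to 451.7 TPM over the libraries. Gata1 was also on the list, at 997 to 2101 TPM, though this line carries an introduced form of it. Slc39a10 was lower with its siRNA, at 0.51 to 0.84 TPM against 2.31 to 2.78 in siControl, and at 4.93 to 5.36 TPM against 20.3 and 22.0 under DTPA. In siZIP10 plus DTPA it was therefore above siControl. Summed markers of other lineages were highest in siZIP10 plus DTPA. For 4 megakaryocyte genes the sum was 34.8 to 36.4 TPM there against 9.81 to 16.3 elsewhere. For 5 mast cell and basophil genes it was 20.9 to 23.2 against 0.83 to 2.60 (Fcer1a and Mcpt8 at 0). For 6 myeloid genes it was 5.86 to 6.80 against 2.33 to 5.16 (Mpo, Elane and Itgam at 0). For 3 lymphoid genes it was 3.36 to 4.07 against 0.56 to 1.80. In each list 1 gene reached most of the highest sum: Gp1ba 27.7 TPM, Hdc 22.5, Cd68 6.66 and Cd79a 3.15. No other gene of these lists exceeded 5.45 TPM (Itga2b) in any library. Mitochondrial rRNA was 1.43% to 1.45% of TPM in siZIP10 plus DTPA against 0.26% to 0.42% in the other groups. The part of these differences in the results below was not tested. In bulk RNA, fewer cells of a type and less RNA per cell cannot be told apart.

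As background, zinc enters the cytosol through ZIP importers such as ZIP10 and leaves it through ZnT transporters. ZnT1 (Slc30a1) sits in the plasma membrane, ZnT5 and ZnT6 (Slc30a5, Slc30a6) form a heterodimer of the early secretory pathway, ZnT7 (Slc30a7) works in the Golgi, and ZnT9 (Slc30a9) exports zinc from mitochondria. ZnT10 (Slc30a10) sits at the cell surface and is known mainly as a manganese exporter. When free zinc rises, MTF1 binds metal response elements and activates metallothionein genes and Slc30a1, while it represses Slc39a10. Developing red cells need zinc for enzymes such as carbonic anhydrase and the heme enzyme encoded by Alad.

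The metallothionein genes are neighbours on chromosome 8, with 5513 bases between Mt2 and Mt1. The metal response element core was searched as TGCACNC and TGCGCNC on both strands, from 250 bases before to 50 bases after each RefSeq start (build GRCm38.p6). Of 32851 mouse promoters of that length, 25.7% held at least 1 core, 7.11% at least 2, 1.97% at least 3 and 0.517% at least 4. All 9 genes matched a RefSeq promoter by symbol. Mt2 held 4 cores, Mt1 3, Slc30a10 3, Slc30a1 2 and Slc30a5 1, and Slc30a6, Slc30a7, Slc30a9 and Mtf1 held none in this window. The 250 bases before the start are shown for the 4 genes with the most cores, since these include the members that moved furthest. They read 5′ to 3′ on the strand of the gene, all on the plus strand, with cores in capitals. A core of the other strand appears as its reverse complement.
Mt2, chr8:94172368-94172617: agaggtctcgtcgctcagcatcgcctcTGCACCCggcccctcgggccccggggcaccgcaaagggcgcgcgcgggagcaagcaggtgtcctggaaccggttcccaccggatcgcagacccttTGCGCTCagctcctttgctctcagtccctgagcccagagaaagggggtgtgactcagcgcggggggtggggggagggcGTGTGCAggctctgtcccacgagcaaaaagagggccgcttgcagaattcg
Mt1, chr8:94178839-94179088: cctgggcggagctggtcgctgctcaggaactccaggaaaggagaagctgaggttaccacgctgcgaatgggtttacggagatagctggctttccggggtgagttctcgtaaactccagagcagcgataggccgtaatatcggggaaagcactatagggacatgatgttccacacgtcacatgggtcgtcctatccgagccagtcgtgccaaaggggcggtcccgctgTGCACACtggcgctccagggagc
Slc30a1, chr1:191906531-191906780: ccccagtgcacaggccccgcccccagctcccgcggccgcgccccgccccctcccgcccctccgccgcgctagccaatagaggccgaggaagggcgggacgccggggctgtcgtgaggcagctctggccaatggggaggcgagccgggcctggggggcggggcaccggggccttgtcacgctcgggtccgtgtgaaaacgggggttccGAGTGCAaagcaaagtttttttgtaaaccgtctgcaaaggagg
Slc30a10, chr1:185454598-185454847: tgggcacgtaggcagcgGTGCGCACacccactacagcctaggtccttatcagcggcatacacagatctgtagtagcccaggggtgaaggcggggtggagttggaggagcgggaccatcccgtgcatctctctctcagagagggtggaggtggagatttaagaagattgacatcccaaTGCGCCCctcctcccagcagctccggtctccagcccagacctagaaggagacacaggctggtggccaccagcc

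Cores were also found after the start, with the start itself counted as base 1, and the site of Slc30a5 lay just before it on the minus strand of chromosome 13. These are shown as 21 bases with the core in capitals, to let the sites be compared letter by letter.
Mt1, core from base 3: ggagctcTGCACTCcgcccga
Mt1, core from base 21: cgaaaagTGCGCTCggctctg
Mt2, core from base 5, other strand: tcgggtcGTGCGCAggcccag
Slc30a1, core from base 31, other strand: ccgggccGAGCGCAgtcgccg
Slc30a5, core from base −48, other strand: tccaccaGCGCGCAggcgcag

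In Slc30a10, 2 of the 3 cores were the same palindromic stretch read on both strands, at −233 to −227 and −232 to −226. Both cores of Slc30a1 lay on the strand opposite to the gene, at −43 to −37 and 31 to 37, whereas all 3 of Mt1 lay on its own strand. Cores outside the window were not counted, and the annotated start need not be the one used in these cells. For Mtf1, the 250 bases before the RefSeq start (chromosome 4, 124802299 to 124802548) lie within the gene as annotated from 124802104. The lack of cores in that window does not cover bases before this gene start. The RefSeq start of Mt1 lies upstream of the start commonly described for this gene, so its window covers only a part of its regulatory region and its count cannot be set against that of Mt2. Among tested genes with a promoter, with DTPA in siControl cells, 21.9% of all 7725 such genes fell, 21.2% of the 4576 with no core, 22.7% of the 3076 with 1 to 3 and 32.9% of the 73 with at least 4. With siZIP10 without DTPA the same shares were 20.2%, 20.2%, 20.1% and 28.8%, and with both treatments against siControl 44.4%, 43.2%, 46.0% and 53.4%. Of the 17 genes with at least 5 cores, part of the last class, 23.5%, 41.2% and 47.1% fell in these 3 comparisons. The shares that rose with DTPA in siControl cells were 10.8% of all such genes and 9.59% of those with at least 4 cores. They were 14.8% and 17.8% with siZIP10 without DTPA, and 27.8% and 31.5% with both treatments. The differences between these classes were not tested.

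**Figure D1:**
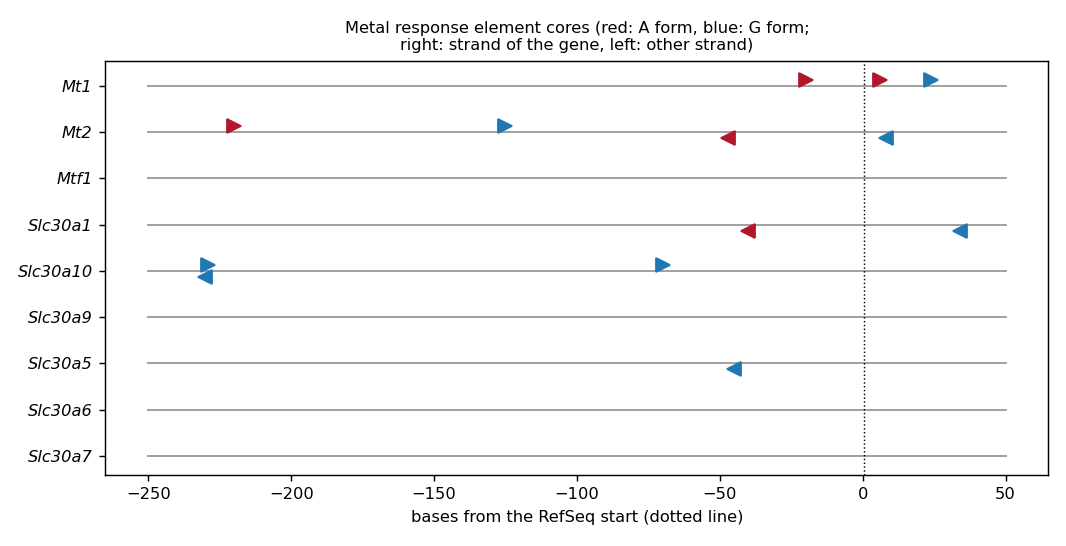
Positions of metal response element cores in the 300-base RefSeq promoter windows of the 9 genes. The horizontal axis is the distance in bases from the annotated start, red and blue mark the A and G forms of the core, and the triangle's direction gives its strand. Mt2 held 4 cores, and 4 genes held none.

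Changes below are differences of mean log2(TPM + 1) between groups, SE is the standard error that the fit gives them, and a gene rose or fell where the adjusted p was under 0.05 in the moderated test of limma. With DTPA in siControl cells, 1 of the 9 genes rose and 3 fell, a total of 4 called, against 28.8% of all tested genes (9.98% higher, 18.8% lower). With siZIP10 without DTPA, 3 rose (3 called), against 30.6% of all genes (13.1% higher, 17.5% lower). With both treatments against siControl, 3 rose and 5 fell (8 called), against 66.6% (26.7% higher, 39.9% lower). With DTPA in siZIP10 cells, 2 rose and 5 fell (7 called), against 60.4% (23.1% higher, 37.3% lower). With siZIP10 plus DTPA against DTPA alone, 3 rose and 4 fell (7 called), against 53.1% (21.3% higher, 31.7% lower). For the interaction, the DTPA effect with the knockdown minus that without it, 2 were positive and 3 negative (5 called), against 32.4% (12.0% higher, 20.4% lower). The median size of the log2 change was 0.13 for the 9 genes and 0.14 for all genes with DTPA in siControl cells, and 0.44 and 0.33 with both treatments. The share of members called was thus near that of all genes with siZIP10 without DTPA and above it in the other comparisons, of which those with both treatments called most of the tested genes; with 9 members this was not tested. Of the calls over all genes, 34.7% to 42.9% were higher over the 6 comparisons, and this share was 44.2% to 54.3% after quantile normalization, 46.0% to 49.2% with median-of-ratios scaling and 38.7% to 54.3% after rescaling to nuclear protein-coding genes.

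**Figure D2:**
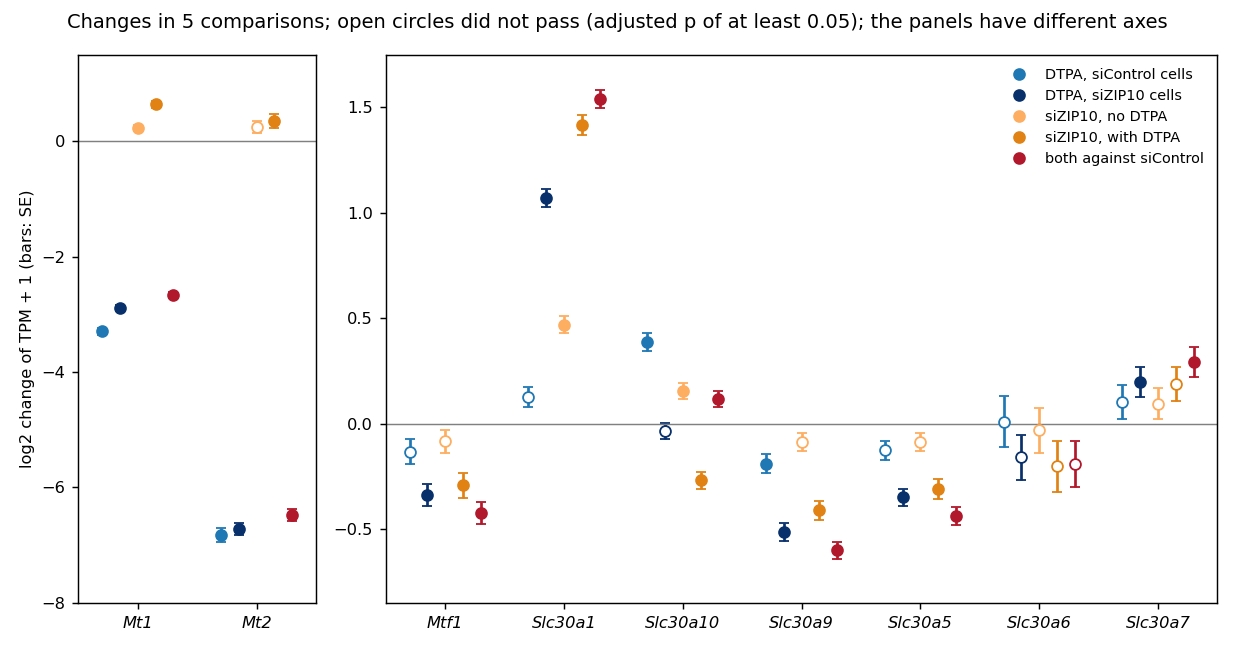
Log2 change of TPM + 1 of the 9 genes in 5 comparisons, with SE bars; filled circles passed an adjusted p of 0.05 and open circles did not. The left panel holds the metallothioneins on a wider axis: all 3 comparisons of DTPA-treated with untreated cells lie between −6.83 and −2.66 for Mt1 and Mt2, whereas Slc30a1 reaches 1.54.

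Mt2 (ENSMUSG00000031762.7, mm10 chromosome 8, 94172664 to 94173568, plus strand) fell further than any other tested gene in each of the 3 comparisons of DTPA-treated with untreated cells. The siControl libraries held 1963, 2108 and 2046 TPM of it; it was at 2365, 2497 and 2377 TPM in siZIP10. Under DTPA it stood at 19.2 and 15.0 TPM in siControl cells and at 21.4, 26.2 and 18.6 TPM in siZIP10 cells. Every DTPA library lay far below every library without it, and the DTPA-treated groups overlapped each other. The log2 change with DTPA was −6.83 (SE 0.12, adjusted p = 1.9e-10) in siControl cells and −6.72 (SE 0.11, adjusted p = 1.16e-11) in siZIP10 cells, rank 1 from the bottom of 11379 genes in both. These low levels rest on 67 to 128 reads per library, a counting error of 8.84% to 12.2%, against 7458 to 9979 reads without DTPA. The interaction was 0.11 (95% interval −0.26 to 0.47, adjusted p = 0.674), so a difference in the DTPA effect of this size was not detectable. With the knockdown alone the change was 0.24 (adjusted p = 0.122), which passed with only the compared groups in the fit, with voom on recovered reads and without siZIP10 plus DTPA replicate 2. The change over DTPA alone of 0.35 (adjusted p = 0.033) was lost in 7 alternatives besides the use of the duplicated library and was 0.18 without siControl plus DTPA replicate 2 (adjusted p = 0.313).

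Mt1 (ENSMUSG00000031765.8, chromosome 8, 94179082 to 94180327, plus strand) fell by less than its neighbour. It stood at 1627, 1804 and 1689 TPM in siControl, and at 1845, 2106 and 2039 TPM in siZIP10. Under DTPA it stood at 170.1 and 175.5 TPM in siControl cells and at 280.2, 268.1 and 259.0 TPM in siZIP10 cells. None of the 4 groups overlapped another. DTPA changed it by −3.30 (SE 0.06, adjusted p = 1.9e-10) in siControl cells, where only Mt2 fell further, and by −2.89 (SE 0.05, adjusted p = 2.79e-11) in siZIP10 cells, where it ranked 16 from the bottom. The interaction was positive, at 0.41 (SE 0.08, adjusted p = 0.00257). The knockdown raised Mt1 both without DTPA (0.23, adjusted p = 0.00875, but 0.18 and adjusted p = 0.0588 after quantile normalization) and with it (0.64, SE 0.06, adjusted p = 6.55e-06).

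The pair therefore changed their proportion. Mt2 divided by Mt1 in TPM was 1.17 to 1.21 in siControl and 1.17 to 1.28 in siZIP10, and 0.0852 to 0.113 in siControl plus DTPA and 0.072 to 0.0976 in siZIP10 plus DTPA. Both DTPA groups lay far below the others and overlapped each other, as did the groups without DTPA. The ratio of levels depends on the annotated exon lengths, 588 bases for Mt2 and 1246 for Mt1, while its change between groups does not. In reads, Mt1 had more than Mt2 in every library. For Mt1 the annotated exon length equals the whole span of the gene. The annotated transcripts of Mt1 and Mt2 share no identical stretch of 25 bases. The antisense gene Gm45774 shares 432 exon bases with Mt2 and stood at 0 to 0.216 TPM. Together they made up 0.359% to 0.391% of all TPM in siControl, 0.421% to 0.460% in siZIP10, 0.019% in both siControl plus DTPA libraries and 0.0278% to 0.0302% in siZIP10 plus DTPA.

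**Figure D3:**
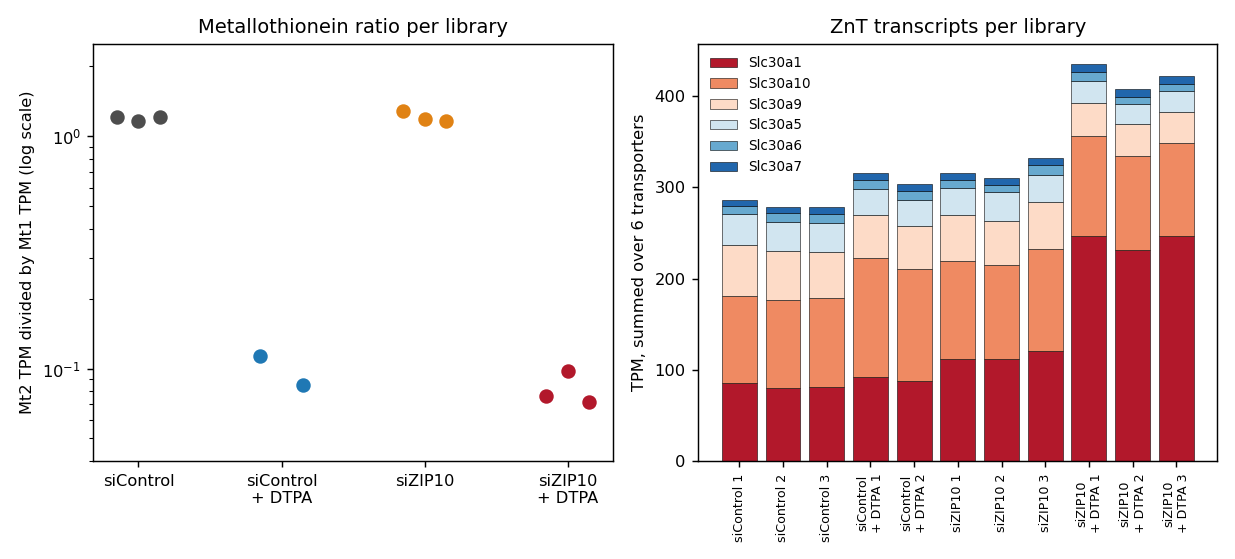
Left, Mt2 TPM divided by Mt1 TPM in each library on a log axis, by group; the libraries without DTPA lie between 1.17 and 1.28 and those with it between 0.072 and 0.113. Right, TPM of the 6 ZnT transcripts stacked per library; Slc30a1 is 29% to 30% of the sum in siControl and 57% to 58% in siZIP10 plus DTPA.

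Slc30a1 (ENSMUSG00000037434.7, chromosome 1, 191906767 to 191913247, plus strand), which encodes the plasma membrane exporter ZnT1, is an MTF1 target like the metallothioneins and, unlike them, did not fall in the comparisons of DTPA-treated with untreated cells. The siControl libraries held 85.9, 80.4 and 81.2 TPM of it and those of siControl plus DTPA 92.5 and 87.6 TPM. The siZIP10 libraries held 112.1, 111.6 and 120.1 TPM and those of siZIP10 plus DTPA 247.1, 231.6 and 247.0 TPM. No 2 groups overlapped, and the order was siControl, siControl plus DTPA, siZIP10, siZIP10 plus DTPA. The first step was not called (0.13, SE 0.05, adjusted p = 0.068), though it passed in 5 other fits (0.14 to 0.18) and without siControl replicate 1 (0.15). The knockdown alone raised Slc30a1 by 0.47 (SE 0.04, adjusted p = 2.1e-05). In siZIP10 cells DTPA raised it by 1.07 (SE 0.04, adjusted p = 4.87e-09), and both treatments together by 1.54 (SE 0.04, adjusted p = 2.01e-10), or 2.93-fold in mean TPM. The interaction of 0.95 (SE 0.06, adjusted p = 1.92e-06) ranked 297 from the top of the tested genes. An annotated antisense gene, 1700034H15Rik, shares 468 exon bases with Slc30a1 and stood at 1.14 to 2.98 TPM. It also rose with both treatments (0.75, adjusted p = 0.000795). Without a known strand setting in the counting, reads in the bases that such pairs share cannot be told apart. For Slc30a1 these are 468 of its 5244 exon bases.

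Slc30a10 (ENSMUSG00000026614.6, chromosome 1, 185454848 to 185468762, plus strand) was the most abundant ZnT transcript in siControl and the only one of the 9 genes to rise with DTPA alone. It stood at 95.6, 96.4 and 97.2 TPM in siControl and at 129.8 and 123.0 TPM in siControl plus DTPA. The siZIP10 libraries held 107.4, 102.8 and 112.0 TPM and those of siZIP10 plus DTPA 108.8, 103.4 and 102.0 TPM. The siControl plus DTPA libraries lay above all others, siControl below all others, and the groups with the knockdown overlapped. DTPA raised Slc30a10 by 0.39 (SE 0.04, adjusted p = 8.35e-05) in siControl cells. In siZIP10 cells the change was −0.04 (95% interval −0.12 to 0.05, adjusted p = 0.432), with a sign that depended on the scaling: it was 0.11 and called after quantile normalization (adjusted p = 0.00951), and 0.04 to 0.05 and not called with 3 other scalings. The interaction was −0.42 (SE 0.06, adjusted p = 0.000231). The knockdown raised the transcript by 0.15 without DTPA (adjusted p = 0.0109) and lowered it by 0.27 with DTPA (−0.27, adjusted p = 0.000305). With both treatments it stood 0.12 above siControl (adjusted p = 0.0174), a call lost without siZIP10 plus DTPA replicate 1 (0.09, adjusted p = 0.0714). Its size depended on the scaling: it was 0.30 after quantile normalization and 0.21 with median-of-ratios scaling, nuclear rescaling and voom. The change against DTPA alone was −0.15 after quantile normalization. The lincRNA gene Gm2061 on the other strand shares 533 exon bases with Slc30a10. It stood at 21.7 to 31.9 TPM and changed by 0.39 with DTPA in siControl cells (adjusted p = 0.00119) and by −0.35 with the knockdown under DTPA (adjusted p = 0.00108), beside 0.39 and −0.27 for Slc30a10.

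**Figure D4:**
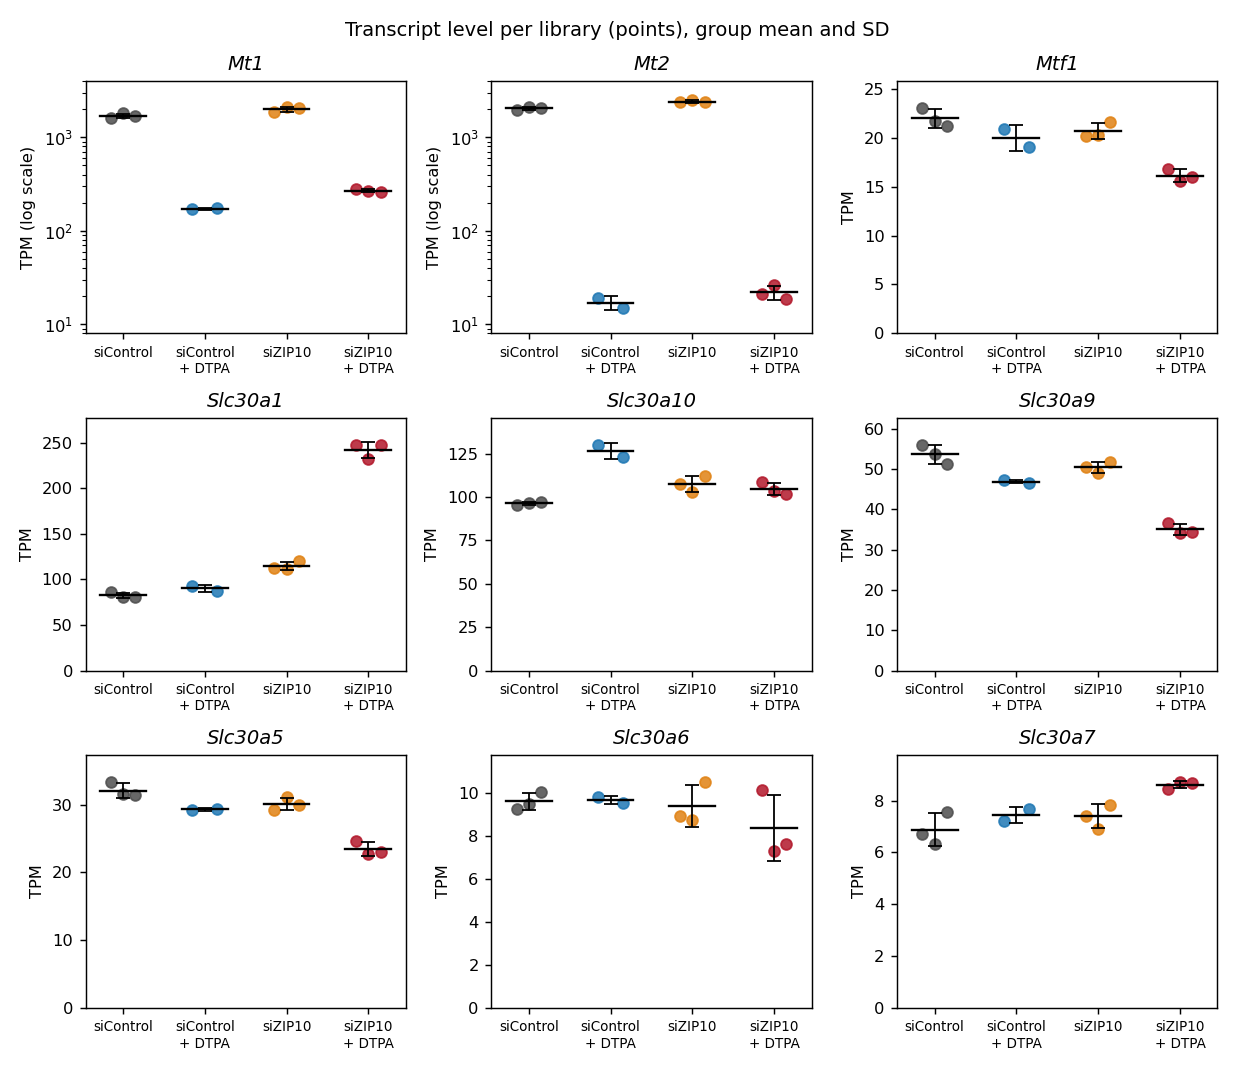
TPM of each of the 9 genes in each library (points) with the group mean and SD; n is 3 for siControl, siZIP10 and siZIP10 plus DTPA and 2 for siControl plus DTPA. Mt1 and Mt2 are on a log axis, the others on linear axes from 0. Slc30a1 is highest in siZIP10 plus DTPA (231.6 to 247.1 TPM) and Slc30a10 in siControl plus DTPA (123.0 and 129.8 TPM).

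The transporters of the secretory pathway differed among themselves. Slc30a5 (ENSMUSG00000021629.10, chromosome 13, 100802648 to 100833427, minus strand) stood at 33.3, 31.6 and 31.4 TPM in siControl and at 29.2 and 29.4 TPM in siControl plus DTPA. It stood at 29.3, 31.1 and 30.0 TPM in siZIP10 and at 24.6, 22.7 and 23.0 TPM in siZIP10 plus DTPA, below all other libraries. It fell by 0.44 with both treatments (−0.44, SE 0.04, adjusted p = 3.9e-06) and by 0.35 with DTPA in siZIP10 cells (−0.35, adjusted p = 3.05e-05). Neither treatment alone passed (−0.13 for DTPA, adjusted p = 0.0654; −0.09 for the knockdown, adjusted p = 0.142). The interaction was −0.22 (adjusted p = 0.0199), and it did not pass once TPM were rescaled to nuclear coding genes (−0.15, adjusted p = 0.0848) or when either siControl plus DTPA library was left out (−0.23 without replicate 1, adjusted p = 0.054; −0.22 without replicate 2, adjusted p = 0.0659).

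Slc30a6 (ENSMUSG00000024069.14, chromosome 17, 74395608 to 74424221, plus strand), the partner of Slc30a5 in the heterodimer, stood at 9.28, 9.49 and 10.1 TPM in siControl, 9.80 and 9.56 in siControl plus DTPA, 8.95, 8.76 and 10.5 in siZIP10, and 10.1, 7.31 and 7.65 in siZIP10 plus DTPA. All groups overlapped, at 163 to 231 reads per library, and it passed in none of the 6 comparisons. Replicate 1 of siZIP10 plus DTPA stood apart from the other two: without it, Slc30a6 fell by 0.32 with both treatments (−0.32, adjusted p = 0.00629), by 0.29 with DTPA in siZIP10 cells (−0.29, adjusted p = 0.0126) and by 0.33 against DTPA alone (−0.33, adjusted p = 0.012). Slc30a7 (ENSMUSG00000054414.4, chromosome 3, 115938973 to 116007406, minus strand) was the least abundant member by mean TPM in every group besides siZIP10 plus DTPA. It stood at 6.71, 6.34 and 7.57 TPM in siControl, 7.23 and 7.66 in siControl plus DTPA, 7.43, 6.92 and 7.85 in siZIP10, and 8.46, 8.71 and 8.70 in siZIP10 plus DTPA. The last group lay above all other libraries, which overlapped. The pseudogenes Gm43106 and Gm6649 on the other strand share 637 and 1165 exon bases with Slc30a7. They stood at no more than 0.679 and 0.743 TPM. Slc30a7 rose by 0.29 with both treatments (SE 0.07, adjusted p = 0.00445) and by 0.20 with DTPA in siZIP10 cells (adjusted p = 0.0372, 0.30 with voom). The second call was lost with no filter on low values (adjusted p = 0.0742) and without any 1 of siZIP10 replicates 1 and 2 and of the siZIP10 plus DTPA replicates (0.16 to 0.21, adjusted p = 0.0614 to 0.124). Against DTPA alone its change of 0.19 (adjusted p = 0.0755) passed with median-of-ratios scaling, the nuclear rescaling, voom and no trend (0.19 to 0.27). Thus Slc30a5 and Slc30a7, both of the secretory pathway, changed in opposite directions with both treatments.

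Slc30a9 (ENSMUSG00000029221.15, chromosome 5, 67306955 to 67358443, plus strand), which encodes the mitochondrial transporter, fell furthest among the ZnT genes. It stood at 55.9, 53.8 and 51.2 TPM in siControl, 47.2 and 46.6 in siControl plus DTPA, 50.4, 49.0 and 51.8 in siZIP10, and 36.5, 34.2 and 34.3 in siZIP10 plus DTPA. The doubly treated libraries lay below all others, siControl plus DTPA lay between them and the rest, and siControl and siZIP10 overlapped. DTPA lowered Slc30a9 in siControl cells (−0.19, SE 0.05, adjusted p = 0.0104), which did not pass when replicate 2 of siControl plus DTPA was left out (−0.18, adjusted p = 0.0698), and lowered it further in siZIP10 cells (−0.51, SE 0.04, adjusted p = 1.27e-06). The interaction was −0.32 (SE 0.06, adjusted p = 0.00231). With both treatments it stood at 65.3% of siControl (−0.60, adjusted p = 2.54e-07). This fall kept its direction and its call after rescaling to nuclear protein-coding genes, which leaves mitochondrial rRNA out of the scaling. Mitochondrial rRNA was highest in the same 3 libraries, and a link between it and Slc30a9 was not tested.

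Mtf1 (ENSMUSG00000028890.13, chromosome 4, 124802104 to 124849800, plus strand) stood at 23.0, 21.7 and 21.2 TPM in siControl, 20.9 and 19.0 in siControl plus DTPA, 20.1, 20.2 and 21.6 in siZIP10, and 16.8, 15.6 and 15.9 in siZIP10 plus DTPA. The doubly treated libraries lay below all others, siControl lay above siControl plus DTPA, and siZIP10 overlapped both of these. Mtf1 fell with both treatments (−0.42, SE 0.05, adjusted p = 3.5e-05) and with DTPA in siZIP10 cells (−0.34, adjusted p = 0.000232). Its change with DTPA in siControl cells, where metallothionein transcripts fell, was −0.13 (95% interval −0.26 to −0.0013, adjusted p = 0.123). The interaction of −0.21 (adjusted p = 0.0723) was called after quantile normalization (−0.23), with voom (−0.18) and without siControl plus DTPA replicate 2 (−0.27). The gene 1110065P20Rik on the other strand shares 721 exon bases with Mtf1 and changed by 0.33 with both treatments (adjusted p = 0.00176), opposite to Mtf1.

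The comparison of the DTPA effect in siControl cells with that in siZIP10 cells, which share no library, places the members among all genes. Over the 11379 genes Pearson's r between the effects was 0.60 and Spearman's rho 0.61, as a description across genes, which are not independent. Mt2 lay at −6.83 and −6.72, near the line of equal effects. Mt1 lay at −3.30 and −2.89, above that line, with a called interaction of 0.41. Slc30a1 (0.13 and 1.07) and Slc30a10 (0.39 and −0.04) lay off that line on opposite sides. Slc30a9 fell in both (−0.19 and −0.51), and Slc30a5 (−0.13 and −0.35) and Mtf1 (−0.13 and −0.34) passed in siZIP10 cells but not in siControl cells. Of these 3, the difference passed for Slc30a9 and Slc30a5, the latter not in every alternative, and not for Mtf1.

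**Figure D5:**
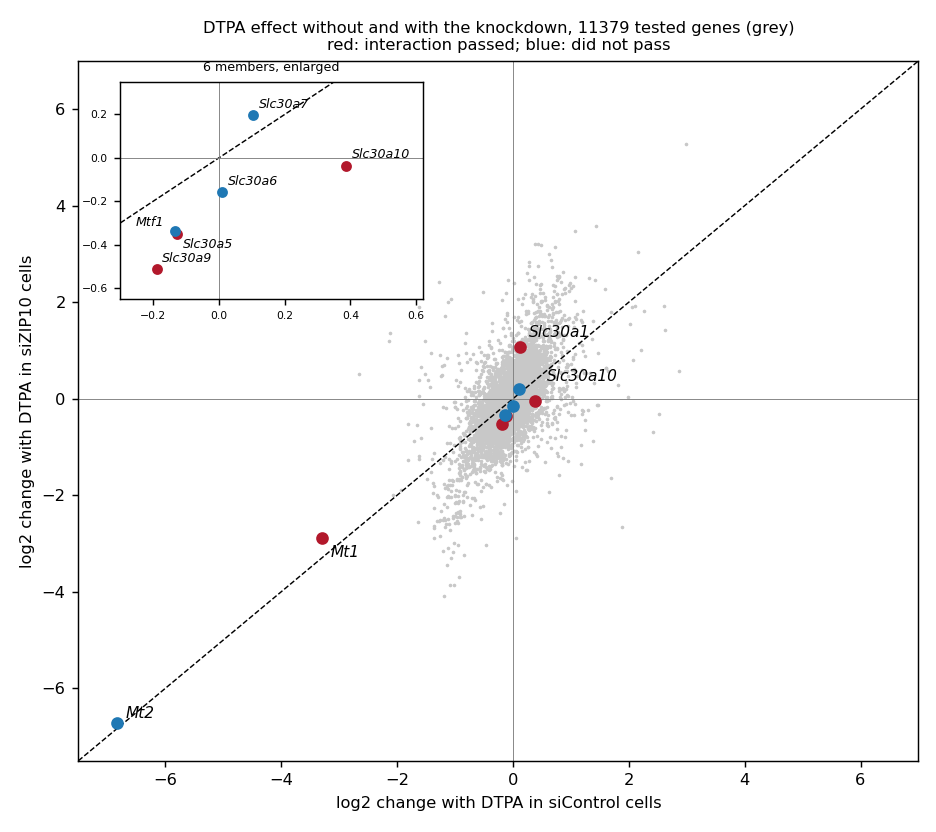
Log2 change with DTPA in siControl cells (horizontal) against that in siZIP10 cells (vertical) for 11379 tested genes in grey and the 9 members in colour; the dashed line marks equal changes. Red members passed the interaction test and blue ones did not, and the inset enlarges 6 of them.

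The make-up of the ZnT transcripts changed with these shifts. Their summed level was 278.0 to 286.6 TPM in siControl, 303.9 and 315.7 in siControl plus DTPA, 310.2 to 332.3 in siZIP10 and 407.9 to 435.6 in siZIP10 plus DTPA. Slc30a1 was 28.9% to 30.0% of this sum in siControl and 56.7% to 58.4% in siZIP10 plus DTPA. Slc30a9 went from 18.4% to 19.5% in siControl to 8.11% to 8.39% in the doubly treated cells. The order of the members by TPM, which is per length, was Mt2, Mt1, Slc30a10, Slc30a1, Slc30a9, Slc30a5, Mtf1, Slc30a6 and Slc30a7 in siControl, and neighbours did not overlap there. In siControl plus DTPA the order was Mt1, Slc30a10, Slc30a1, Slc30a9, Slc30a5, Mtf1, Mt2, Slc30a6 and Slc30a7, with overlap of Mtf1 and Mt2 only. In siZIP10 the order was that of siControl except that Slc30a1 stood above Slc30a10: Slc30a1 divided by Slc30a10 was 1.04 to 1.09, with overlapping ranges of the 2 genes (111.6 to 120.1 and 102.8 to 112.0 TPM). In siZIP10 plus DTPA the order was Mt1, Slc30a1, Slc30a10, Slc30a9, Slc30a5, Mt2, Mtf1, Slc30a7 and Slc30a6. There Slc30a5 and Mt2 overlapped, as did Slc30a7 and Slc30a6. The rest of both families was near or at 0: Slc30a2 stood at 0.147 to 0.877 TPM (4 to 26 reads), Mt3 at no more than 0.454 TPM and Slc30a4 at no more than 0.0219 TPM, while Slc30a3, Slc30a8 and Mt4 were listed at 0 in every library.

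For the 3 members whose group means spanned at least 1 on the log2 scale, the tested genes with the most similar levels over the 11 libraries were taken by Pearson's r. Mt1 was closest to Mt2 (r = 0.993), then Tmco4 (0.991) and Selenow (0.984), and Mt2 was next closest to Cnbp (0.993) and Selenow (0.992). Slc30a1 was closest to Slc35f6 (0.995), Lonrf2 (0.995) and Nceh1 (0.995), which went from 10.1 to 45.0 mean TPM from siControl to siZIP10 plus DTPA. These values rest largely on 4 group levels and carry no p. Between Slc30a1 and Mt1 r was −0.47.

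Other genes tied to MTF1 or zinc were taken from lists. Over all tested genes, 28.8% were called with DTPA in siControl cells (9.98% higher, 18.8% lower). With both treatments against siControl 66.6% were called (26.7% higher, 39.9% lower). The counts of the lists were not tested against these shares. Of 7 further genes described as depending on MTF1, 3 were tested. Slc39a10 rose with DTPA in siControl cells (2.61, adjusted p = 3.73e-07). Selenow, a selenoprotein gene, fell from 4111 to 2683 mean TPM with DTPA (−0.62, adjusted p = 4.29e-07). Gclc, which encodes a subunit of the glutathione synthesis enzyme, fell from 140.6 to 110.0 mean TPM (−0.35, adjusted p = 8.04e-05) and reached 81.1 TPM with both treatments (−0.79, adjusted p = 6.42e-09). With siZIP10 without DTPA, Gclc also fell (−0.28, adjusted p = 0.000179), whereas Selenow rose (0.11, adjusted p = 0.00693). Slc39a10, the target of the siRNA, fell there (−1.16, adjusted p = 2.37e-05). Of 9 tested ZIP importers, 1 rose with DTPA in siControl cells (Slc39a10) and 8 did not pass, and with both treatments 3 rose (Slc39a1, Slc39a6 and Slc39a10), 1 fell (Slc39a8) and 5 did not pass. Of 3 tested zinc enzymes of the secretory pathway, 1 rose (Smpd1), 1 fell (Adam10) and 1 did not pass with both treatments. Their changes with DTPA in siControl cells, −0.11 to −0.04, did not pass in limma, though Adam10 passed without siControl replicate 2 and Smpd1 without siControl plus DTPA replicate 1. Of 7 zinc enzymes of the red cell cytosol, 1 rose and 2 fell with DTPA in siControl cells, and 3 rose and 3 fell with both treatments. Among them Alad went from 514.0 to 64.2 mean TPM with both (−2.98, adjusted p = 6.71e-13), the carbonic anhydrase gene Car2 from 4257 to 1635 (−1.38, adjusted p = 8.49e-12), and Car1 from 64.6 to 395.7 (2.60, adjusted p = 3.83e-09). The medians of the 4 lists with DTPA in siControl cells were −0.35, −0.01, −0.09 and 0.03, against −0.04 over all tested genes.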

How the data were processed

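Poly(A) RNA of 12 G1E-ER4 cultures, labelled as biological replicates, was sequenced with a stranded kit per the labels. The authors deposited TPM values, and per the submitters' processing notes used Trimmomatic 0.33, FastQC, HISAT2 2.1.0, featureCounts, edgeR and build mm10; their order and settings, with the annotation and the strand option, were not given in the sources used here. TPM are shares, so a gene's TPM also moves with the make-up of its library. TPM times the exon length in GENCODE mouse release 21 fell on whole multiples of a unit per library (98.9% to 99.1% of values up to 20 reads within 0.1 read), which gave reads. Groups came from the labels; 11 libraries were used.

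log2(TPM + 1) was tested with limma 3.58.1 (R 4.3.3; mean-expression trend; 4 group means; 7 residual and 3.21 prior degrees of freedom; two-sided; Benjamini-Hochberg over 11379 genes whose mean was 1 TPM or more; threshold 0.05), in 6 comparisons. On this scale the changes of weakly expressed genes come out too small. The fit was also run on simulated data, for the comparison of DTPA in siControl cells only. The simulation changed a smaller share of genes than was called there, and its outcome is not given here. The named genes were the 9 members, Slc39a10, called members of the lists and the 3 genes most like a member; members and lists were chosen with earlier results of these data known. Comparisons that share a group are not independent. Tables were made with pandas 2.3.3 in Python 3.11.15 and figures with matplotlib 3.10.9. The summed levels cover the 4 megakaryocyte and 3 lymphoid genes counted there; 1 further gene of each list is not reported here.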

Additional observations from a re-analysis of the deposited data

Results flagged for a closer look

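For 5 of the 9 genes, the effect of DTPA differed between siZIP10 and siControl cells by the test of that difference (limma, adjusted p under 0.05), against 32.4% of all tested genes. The difference of the log2 changes was 0.95 for Slc30a1, 0.41 for Mt1, −0.22 for Slc30a5, −0.32 for Slc30a9 and −0.42 for Slc30a10. The difference for Slc30a5 did not pass once TPM were rescaled to nuclear coding genes (adjusted p = 0.0848) or without siControl plus DTPA replicate 1 (adjusted p = 0.054) or 2 (adjusted p = 0.0659). Slc30a1 was not called with DTPA in siControl cells and rose in siZIP10 cells, while Slc30a10 rose in siControl cells and was not called in siZIP10 cells. The reduced fall of Mt1 in knockdown cells, from −3.30 to −2.89, had no counterpart past the threshold in Mt2. The Mt2 difference was 0.11 (SE 0.16), on 67 to 128 reads per library under DTPA. Whether it differed from that of Mt1 was not tested.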

How the results depend on the processing

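Of 1179 values of the members under alternatives, 1121 kept their direction and their side of the threshold, 22 lost the call, 21 gained it and 15 changed sign. Calls lost or gained, other than with the duplicated library, stand beside the results. Sign changes among values that passed in neither fit were those of Slc30a6 (with siZIP10 without DTPA 0.0074 after quantile normalization and −0.107 to 0.0123 when 1 library was left out; with DTPA in siControl cells −0.0242 with the duplicated library and −0.0128 to 0.0409 when 1 library was left out), of Slc30a10 with DTPA in siZIP10 cells (0.041 with median-of-ratios scaling, 0.0514 after rescaling to nuclear protein-coding genes and 0.0425 with voom) and of the Mt2 interaction (−0.0624 to 0.275 when 1 library was left out, below 0 without siControl plus DTPA replicate 2 and without siZIP10 plus DTPA replicate 2). After quantile normalization Slc30a10 was called with DTPA in siZIP10 cells at 0.11. Using the duplicated library as labelled, which puts untreated knockdown values into the DTPA group, turned the metallothionein changes over DTPA alone (Mt1 −0.50, Mt2 −1.998) and the interactions (Mt1 −0.73, Mt2 −2.24). The Slc39a10 interaction of −0.70 was 0.58 with that library, 0.0535 with voom and −0.10 with a pseudocount of 0.1, none of them called. Mean TPM of Slc39a10 went from 2.62 to 21.1 with DTPA in siControl cells and from 0.627 to 5.10 in siZIP10 cells. The cause of the differences between these fits was not tested. Of 54 results of the members, 37 kept direction and call in every alternative besides the duplicated library.

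The number of genes called stayed within 1.5 times in every alternative, for example 2206 to 3270 for DTPA in siControl cells when 1 library was left out. Replicate numbers did not pair the libraries (correlations of same-numbered deviations −0.06 to 0.061). With a replicate block 3137 genes were called with DTPA in siControl cells against 3272 without it, and the Slc30a1 change of 0.14 then passed (adjusted p = 0.0301). The interaction could not be refitted with only the compared groups, since it uses all 4.

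The siControl plus DTPA group had 2 libraries, 1 line was studied at 1 dose and 1 time, and Mt2 under DTPA rests on at most 128 reads per library. TPM cannot show a change of total RNA. The siRNA was labelled only by its target.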
